A study of Homo sapiens with 4 samples.

Results

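The genes described here are 10 genes of the Hippo pathway and its output, taken by name from the 63677 genes in the count files. They are the coactivators *YAP1* and *WWTR1* (which encodes TAZ), the DNA-binding partners *TEAD1* and *TEAD4*, the inhibitory kinases *LATS1* and *LATS2*, and the target genes *CTGF*, *CYR61*, *ANKRD1* and *AMOTL2*. *CTGF* and *CYR61* are called *CCN2* and *CCN1* in later annotation. The choice was by name and set no threshold on a measured value, but was made with earlier results of these data known. Their expression was compared between 2 RNAseq libraries of FLO-1LM cells and 2 of FLO-1 parental cells. FLO-1 comes from a human esophageal adenocarcinoma and is an established line. FLO-1LM is a subline of it, which the study derived by passaging liver metastases serially under the skin of immunodeficient NSG mice. Both lines were grown in DMEM with no treatment named, and RNA was taken at 80% confluency, 24 hr after the medium was changed. FLO-1LM is 1 derived line, and neither the labels nor the methods say that the libraries of a line were separate cultures, so the p-values measure only the spread between these libraries, which may be technical.

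The Hippo pathway restrains tissue growth. When it is active, the MST kinases (encoded by *STK3* and *STK4*) activate the LATS kinases, which phosphorylate YAP and TAZ and keep them out of the nucleus. When it is inactive, YAP and TAZ enter the nucleus, bind TEAD proteins on DNA and raise the transcription of genes such as *CTGF* and *CYR61*. Because the switch is mostly a matter of phosphorylation and location, the mRNA of the coactivators does not report their activity, and target genes are commonly read in its place. *LATS2* and *AMOTL2* are themselves targets that feed back on YAP. Cell density, serum and tension on the actin cytoskeleton are known to set the state of the pathway in epithelial cells, and E-cadherin junctions are among its upstream inputs.

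TEAD proteins recognise a short DNA word, GGAATG, which reads CATTCC on the opposite strand. It was searched for on both strands of the 250 bases before each start site in RefSeq promoters (GRCh38.p14, a later build than that of the counts). Of the 10 genes, 7 had a promoter in that table, with 10 start sites between them, and 4 of the 10 windows held the word, against 11.9% of all 35116 promoters. The set was named to include known YAP targets, and *WWTR1*, *LATS1* and *AMOTL2* each gave more than 1 window. The shares are therefore not a test of enrichment. *CYR61*, *TEAD1* and *TEAD4* had no entry. The windows of *CTGF* and *ANKRD1* held it more than once and are shown, 5′ to 3′ on the minus strand and with the word in capitals, because *CTGF* was well expressed and *ANKRD1* had no counts in the same cells.
CTGF, chr6:131951373-131951622: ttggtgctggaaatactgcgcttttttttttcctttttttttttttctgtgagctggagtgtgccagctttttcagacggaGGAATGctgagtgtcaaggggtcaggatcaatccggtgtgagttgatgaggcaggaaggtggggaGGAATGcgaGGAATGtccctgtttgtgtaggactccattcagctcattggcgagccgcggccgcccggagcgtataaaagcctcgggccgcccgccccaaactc
ANKRD1, chr10:90921088-90921337: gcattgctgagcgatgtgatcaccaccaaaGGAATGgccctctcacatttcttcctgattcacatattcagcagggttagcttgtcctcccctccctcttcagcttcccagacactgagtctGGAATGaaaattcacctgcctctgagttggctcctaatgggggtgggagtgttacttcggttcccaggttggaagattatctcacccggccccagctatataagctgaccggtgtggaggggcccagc
In *CTGF* the 3 words begin 169, 104 and 95 bases before the start, and 0.0826% of all promoters held 3 or more. In *ANKRD1* the 2 words begin 220 and 128 bases before it, and 0.94% held 2 or more. Single words lay in the windows of *YAP1* and of 1 of the *AMOTL2* start sites, and none in those of *WWTR1*, *LATS1* or *LATS2*. A match is a description of the sequence and not a bound site.

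The libraries held 19060310 to 25920336 counts. A count was found for 21152 and 21304 genes in FLO-1LM and for 23104 and 22908 in parental cells, although both parental libraries held fewer counts. Whether this difference bears on genes with few counts, many of them noncoding, was not tested. Levels are given as CPM, read counts scaled to a common library size with edgeR's TMM factors, and 17143 genes with enough counts were tested between the lines. Mitochondrial genes took 9.57% and 9.96% of the counts in FLO-1LM and 7.93% and 8.31% in parental cells. Among epithelial markers, *KRT8* and *KRT18* lay between 183 and 453 CPM in the 4 libraries, although reads of their pseudogenes make these values uncertain, while *EPCAM* reached no more than 0.466 CPM. The 7 epithelial markers summed to 495 and 511 CPM in FLO-1LM and 866 and 879 in parental cells, mostly from *KRT8* and *KRT18*. Of the 6 tested, 5 were lower in FLO-1LM at an adjusted p below 0.05, where 1.83% of all genes were lower. They were *KRT8*, *KRT18*, *KRT19*, *CLDN4* and *CDH1*, with adjusted p of at most 0.00174 from edgeR. *KRT7* went the other way, with 6.37 and 6.06 CPM in FLO-1LM against 3.09 and 4.90 (log2 fold change 0.64, adjusted p = 0.303 from edgeR). Markers of other human cell types were near 0 for most genes. Host cells carried along with a liver deposit would be mouse cells, and reads were mapped to a human reference. The values below therefore cannot show whether such cells were present. The summed level was at most 0.272 CPM for 4 hepatocyte genes, with *ALB* at 0, and at most 0.314 for 4 leukocyte genes, with *PTPRC* at 0. It was at most 0.313 for the 3 endothelial genes matched, with *KDR* at 0, and at most 13.1 for 6 fibroblast genes, nearly all of it *COL1A1*, with *COL3A1* and *DCN* at 0. In cultured bulk RNA, fewer cells that express a gene and less RNA per cell cannot be told apart.

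*CYR61* was the only one of the 10 genes that passed the test between the lines, at a 1.26-fold higher level in FLO-1LM. *YAP1*, *WWTR1*, *TEAD1*, *TEAD4*, *LATS1*, *LATS2*, *CTGF* and *AMOTL2* did not pass the test, and their 95% intervals all lay between 0.795-fold and 1.26-fold of the parental level. *ANKRD1* had no count in any library and could not be tested. The 1 gene called is 11.1% of the 9 tested, against 2.23% of all 17143 genes in edgeR's quasi-likelihood test at an adjusted p below 0.05. By direction, 0.402% of all genes were higher and 1.83% were lower in FLO-1LM. Among the 5524 genes at or above the mean CPM of the least abundant member tested, 36 were higher and 79 lower. The lines did not overlap for 3 of the 9 members (33.3%), a smaller share than the 42.6% found over all tested genes. The median log2 fold change of the 9 was 0.019, beside 0.0016 for all genes. For any gene taken alone, 0.333 is the smallest p that exact permutation of 2 and 2 libraries allows, and the tests therefore lean on the spread that edgeR shares across genes.

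**Figure D1:**
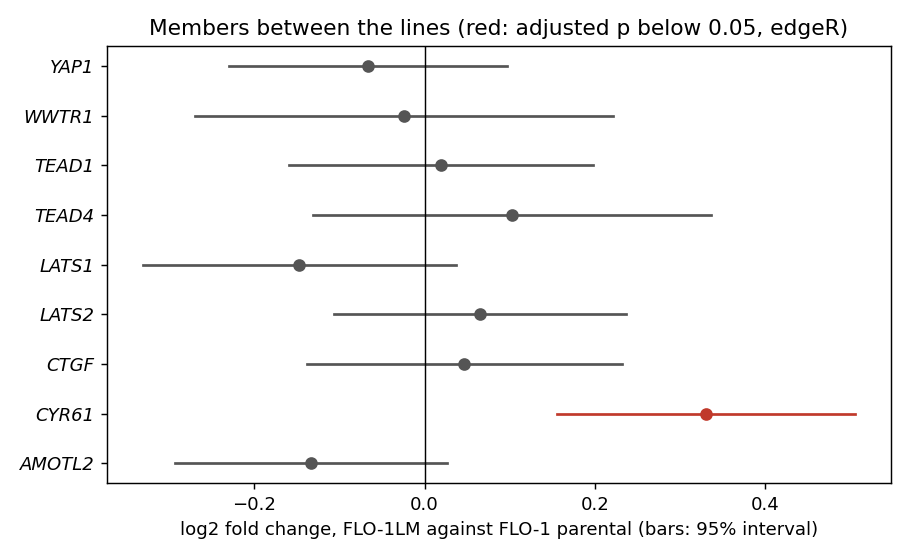
Log2 fold change of the 9 detected members, FLO-1LM against FLO-1 parental (x axis), with 95% intervals from edgeR's quasi-likelihood test on 2 libraries per line. Only the interval of *CYR61*, from 0.16 to 0.51, lies wholly on one side of 0.

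*YAP1* encodes the main coactivator, and lies at chr11:101981178-102104155 on the forward strand (GRCh37, a later annotation than the one counted on). Its level was 292 and 299 CPM in the FLO-1LM libraries and 331 and 289 in the parental libraries. Both FLO-1LM values fell between the parental ones. The log2 fold change was −0.067 (SE 0.078, 95% interval −0.23 to 0.096, adjusted p = 0.816 from edgeR). *WWTR1*, whose product TAZ shares much of the role of YAP, lies at chr3:149235022-149454501 on the reverse strand. It measured 64.8 and 47.9 CPM in FLO-1LM and 59.0 and 55.4 in parental cells, so that the FLO-1LM libraries held both the highest and the lowest value. They differed from each other by 0.43 on the log2 scale, where the median size of that difference over all tested genes was 0.16. The fold change between the lines was −0.025 (SE 0.117, adjusted p = 0.966 from edgeR), with the widest interval of the set, −0.27 to 0.22.

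A noncoding gene on the strand opposite *YAP1*, ENSG00000254422, shares all of its 628 exon bases with *YAP1* in the later annotation. The noncoding gene had 19 and 23 counts in FLO-1LM and 124 and 121 in parental cells, a log2 fold change of −2.76 (SE 0.33, adjusted p = 6.23e-05 from edgeR). These counts came to 0.292% and 0.298% of those of *YAP1* in FLO-1LM and 1.70% and 2.19% in parental cells. The parental libraries also held a count for more genes in all, as given above, so this fall may not be particular to the *YAP1* locus. The libraries were directional, but the strand setting of the counting is not given in the sources used here, so the reads of such a pair may not be separable. *WWTR1-AS1*, opposite *WWTR1* with 756 shared exon bases, had 16 and 7 counts in FLO-1LM and 10 and 4 in parental cells and did not pass the test (adjusted p = 0.875 from edgeR).

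TEAD proteins bring YAP and TAZ to DNA. *TEAD1* (chr11:12695968-12966284, forward strand) measured 157 and 182 CPM in FLO-1LM and 176 and 159 in parental cells, and the parental values lay inside the range of the other line. Its log2 fold change was 0.019 (SE 0.085, adjusted p = 0.964 from edgeR). *TEAD4* (chr12:3068496-3149842, forward strand) measured 48.2 and 40.4 CPM in FLO-1LM against 43.9 and 38.5, a log2 fold change of 0.10 (SE 0.11, adjusted p = 0.8 from edgeR). Here the spread within each line was wider than the gap between them. The remaining family members, *TEAD2* and *TEAD3*, had log2 fold changes of −0.020 and −0.058 (adjusted p = 0.971 and 0.911 from edgeR). Per kb of exon, the 4 TEAD genes summed to 55.1 and 53.9 CPM in FLO-1LM and 54.6 and 52.3 in parental cells. *TEAD4* held 32.3% to 38.5% of this sum and *TEAD1* 26.7% to 31.5%, with overlap between the lines for both.

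The LATS kinases are the step that inactivates YAP and TAZ. *LATS1* (chr6:149979289-150039241, reverse strand) measured 88.1 and 79.0 CPM in FLO-1LM and 96.3 and 88.7 in parental cells. The lines did not overlap, but the gap between the nearest values was small, and the log2 fold change of −0.15 did not pass the test (SE 0.088, 95% interval −0.33 to 0.036, adjusted p = 0.547 from edgeR). *LATS2* (chr13:21547175-21635725, reverse strand), which is also induced by YAP, measured 109 and 99.8 CPM in FLO-1LM and 99.9 and 99.2 in parental cells. Its second FLO-1LM value fell between the parental ones, and the log2 fold change was 0.065 (SE 0.082, adjusted p = 0.833 from edgeR). Per kb of exon, *LATS2* made up 65.1% and 65.6% of the kinase pair in FLO-1LM and 61.1% and 62.9% in parental cells.

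*CYR61* encodes a secreted matrix protein of the CCN family that binds integrins, and is an immediate target of YAP, of serum response factor and of growth factors. It lies at chr1:86046444-86050272 on the forward strand. The files gave it 2709 and 3541 counts in FLO-1LM and 2296 and 1956 in parental cells, or 122 and 138 CPM against 104 and 102. Both FLO-1LM libraries were above both parental libraries. Mean levels were 129.6 ± 11.3 CPM in FLO-1LM and 103.1 ± 1.5 in parental cells (SD, n = 2 each). The log2 fold change was 0.33 (SE 0.083, 95% interval 0.16 to 0.51), with an adjusted p of 0.0435 from edgeR's quasi-likelihood test. Among the 69 genes higher in FLO-1LM it ranked 61 by p and 56 by size, below their median log2 fold change of 0.53. The call was therefore close to the threshold. It was lost with library totals in place of TMM factors (0.30, adjusted p = 0.0743 from edgeR), and without the second FLO-1LM library (0.24, adjusted p = 0.101), the first parental library (0.35, adjusted p = 0.400) or the second parental library (0.32, adjusted p = 0.446). It was kept without the first FLO-1LM library (0.42, adjusted p = 0.000247 from edgeR) and with the mitochondrial genes left out (0.33, adjusted p = 0.0432), and the fold change was positive in all 11 alternatives.

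*CTGF*, the closest relative of *CYR61* in the set and another secreted CCN protein, lies at chr6:132269316-132272512 on the reverse strand. It measured 75.4 and 81.8 CPM in FLO-1LM and 73.0 and 79.2 in parental cells. The libraries of the lines alternated in order, and the log2 fold change was 0.047 (SE 0.088, 95% interval −0.14 to 0.23, adjusted p = 0.897 from edgeR). The promoter with 3 TEAD words shown above thus belonged to a gene whose level did not differ detectably between the lines. The interval of *CTGF* overlapped that of *CYR61*, and the difference between the 2 fold changes was not tested in the fit across genes.

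*AMOTL2* encodes an angiomotin-like scaffold that holds YAP in the cytoplasm and at junctions, and is itself a YAP target. It lies at chr3:134074189-134094321 on the reverse strand. Its level was 171 and 160 CPM in FLO-1LM and 177 and 186 in parental cells. Both FLO-1LM values were below both parental values, by a small margin, and the log2 fold change of −0.13 did not pass the test (SE 0.076, 95% interval −0.29 to 0.027, adjusted p = 0.524 from edgeR). The 3 angiomotin genes together, per kb of exon, stayed between 35.0 and 36.9 CPM in the 4 libraries. *AMOTL2* held 74.1% and 70.7% of this sum in FLO-1LM and 77.1% and 77.7% in parental cells, and *AMOTL1* held 24.5% and 27.8% against 20.8% and 20.4%.

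*ANKRD1* encodes an ankyrin repeat protein of muscle that many epithelial lines also make when YAP is active. It lies at chr10:92671853-92680844 on the reverse strand and had 0 counts in each of the 4 libraries. A count of 0 allows a level of up to 0.117 to 0.156 CPM in these libraries, taking 3 counts as the limit and counting error alone. Per kb of exon, *CTGF* was at least 387-fold higher than *ANKRD1* in each library when *ANKRD1* was set to that limit of 3 counts per library. The promoter of *ANKRD1* carries the TEAD word 2 times, as shown above, in cells where *CTGF*, *CYR61* and *YAP1* were all abundant. No fold change between the lines can be given.

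**Figure D2:**
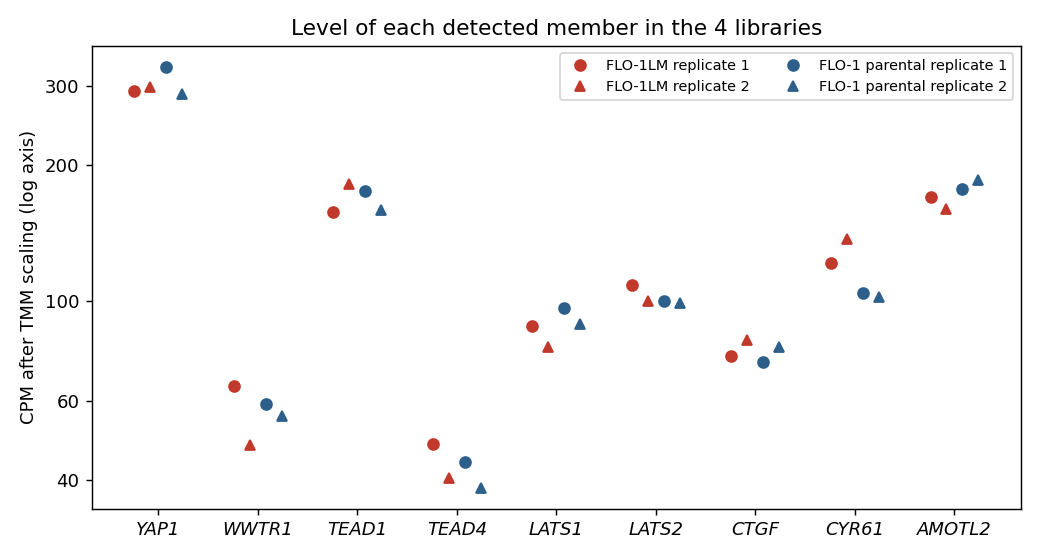
CPM after TMM scaling (y axis, log scale) of the 9 detected members in each of the 4 libraries. Points of the lines interleave for 6 genes and separate for *LATS1*, *CYR61* and *AMOTL2*, where *CYR61* shows 122 and 138 CPM in FLO-1LM above 104 and 102 in parental cells.

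Levels of different genes were compared per kb of annotated exon, which understates genes with many unused exons. *YAP1* stood highest with 45.8 to 52.4 CPM per kb in the 4 libraries. *CTGF* (31.2 to 35.0), *CYR61* (27.6 to 37.2) and *AMOTL2* (24.7 to 28.7) came next. The ranges of *CTGF* and *CYR61* overlapped, and so did those of *CYR61* and *AMOTL2*. *TEAD4* (16.9 to 21.2) and *LATS2* (17.7 to 19.3) could not be put in order, and the highest value of *TEAD1* (14.7 to 17.0) reached the lowest of *TEAD4* but not that of *LATS2*. *LATS1* (9.31 to 11.3) and *WWTR1* (5.74 to 7.76) followed, each without overlap with the genes above. *YAP1* supplied 85.7% to 89.2% of the summed *YAP1* and *WWTR1* level in the 4 libraries, so these cells carried far more *YAP1* than *WWTR1* mRNA in both lines. Protein and its location in the cell were not measured here.

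**Figure D3:**
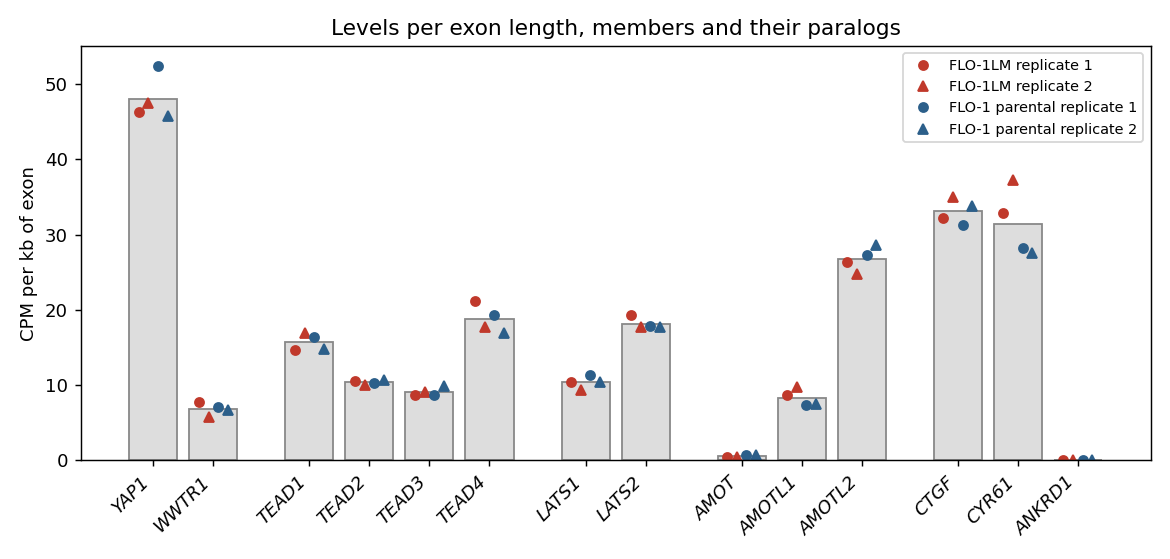
CPM per kb of exon (y axis) for members and their paralogs, with bars at the mean of the 4 libraries and points for each library. *YAP1* is the highest, at a mean of 48.0, *AMOT* is near 0 and *ANKRD1* is at 0.

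The rest of the pathway was read from fixed lists, chosen, like the members, with earlier results of these data known. Of 16 core kinases and scaffolds, 15 were tested and 0 passed the test in either direction in edgeR or DESeq2. In edgeR 2 had an unadjusted p below 0.05. So did 2119 of all 17143 genes, and 740 of the 5524 at or above the mean CPM of the least abundant member tested. The MST kinase genes *STK3* and *STK4* had log2 fold changes of −0.033 and 0.0025. The highest values in the list were those of *FRMD6*, a scaffold upstream of LATS, at 0.30 (SE 0.115, adjusted p = 0.256 from edgeR, and 0.46 with 0.00219 without the second FLO-1LM library), and *NF2*, the merlin tumor suppressor, at 0.12 (SE 0.086, adjusted p = 0.632). The lowest were those of the kinase genes *MAP4K4* at −0.18 and *STK38* at −0.13 (adjusted p = 0.359 and 0.558 from edgeR). The median over the list was −0.0084.

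TRIP6, a LIM domain protein of cell junctions that is known to bind and restrain LATS kinases, gave the clearest rise among the regulators. *TRIP6* measured 21.2 and 19.7 CPM in FLO-1LM and 8.35 and 7.93 in parental cells, a log2 fold change of 1.33 (SE 0.16, adjusted p = 6.23e-05 from edgeR). It was the 1 gene of 5 in its list that passed, where 0.402% of all genes were higher. The study had already reported *TRIP6* as higher, so the count is not a result about LIM genes as a group. *ZYX*, *AJUBA*, *WTIP* and *LIMD1* had values of 0.19, 0.095, −0.096 and −0.21 (adjusted p = 0.312 to 0.814 from edgeR). Per kb of exon *TRIP6* had a mean of 5.61 CPM over the 4 libraries, beside 35.3 for *ZYX*.

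Of 13 polarity and junction genes tested, 1 was lower and 0 were higher in FLO-1LM, beside 1.83% and 0.402% of all genes. The lower one was *CDH1*, which encodes E-cadherin, at 16.4 and 19.9 CPM against 85.9 and 82.6, a log2 fold change of −2.21 (SE 0.11, adjusted p = 1.12e-09 from edgeR). The study had already reported *CDH1* as its most significantly lower gene, so the count is not a result about polarity genes as a group. *INADL*, a Crumbs complex scaffold, was the next lowest at −0.17 (adjusted p = 0.590). *CRB3* had the highest value at 1.64 but on less than 1 CPM (SE 0.82, adjusted p = 0.439), and *MPP5* was at 0.22 (adjusted p = 0.359 from edgeR). *CTNNA1*, which encodes the alpha-catenin that links E-cadherin to actin, was at 0.0098 (SE 0.069).

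Among 11 proteins that hold or mark YAP and TAZ in the cytoplasm, 0 passed the test in edgeR or DESeq2. In edgeR 2 had an unadjusted p below 0.05, beside 2119 of all 17143 genes. The highest were *AMOTL1* at 0.31 (SE 0.087, adjusted p = 0.0759 from edgeR) and *YWHAB*, which encodes a 14-3-3 protein, at 0.095 (adjusted p = 0.652). *AMOTL1* measured 87.4 and 97.7 CPM in FLO-1LM and 73.9 and 75.4 in parental cells, without overlap, and passed the threshold when no low-count filter was used (adjusted p = 0.0349) and without the first FLO-1LM library (adjusted p = 0.00192). The lowest were *AMOT* at −0.59 on 4.09 to 6.35 CPM (SE 0.24, adjusted p = 0.291) and *TP53BP2* at −0.16 (adjusted p = 0.5 from edgeR). The 3 tested genes among 6 other TEAD and VGLL factors gave 0 calls, with *VGLL4*, which competes with YAP for TEAD, at −0.18 (SE 0.084, adjusted p = 0.374). *VGLL1* and *VGLL3* had no counts.

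A further 17 genes are widely used as a readout of YAP and TAZ. Of these, 15 were tested and 0 passed the test in edgeR or DESeq2. In edgeR 3 had an unadjusted p below 0.05, beside 2119 of all 17143 genes. The median log2 fold change was 0.030, and 8 values were positive and 7 negative. The highest were *CCDC80* at 0.92, on at most 1.03 CPM (SE 0.70, adjusted p = 0.670), and *FOXF2* at 0.19 (adjusted p = 0.789). The lowest were the tissue factor gene *F3* at −0.37, on at most 3.77 CPM (SE 0.34, adjusted p = 0.750), and *MYOF*, the membrane repair gene myoferlin, at −0.15 (SE 0.071, adjusted p = 0.387 from edgeR). *AXL*, a receptor tyrosine kinase gene often followed as a YAP target, measured 125 and 156 CPM in FLO-1LM and 137 and 136 in parental cells, with the parental values inside the FLO-1LM range. *IGFBP3* and *RBMS3* had no counts.

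Several YAP targets also answer to serum response factor and its MRTF partners. The list read here held genes of these factors and of the actin cytoskeleton, and not only YAP targets. Of its 13 genes tested, 1 was higher and 0 lower, beside 0.402% and 1.83% of all genes. The higher one was *TPM1*, an actin-binding tropomyosin gene, at 118 and 118 CPM in FLO-1LM against 96.3 and 94.5, a log2 fold change of 0.31 (SE 0.079, adjusted p = 0.0490 from edgeR). Like *CYR61* it sat at the threshold, and it passed in 7 of 11 alternatives. It fell short with library totals (adjusted p = 0.0842), with at least 10 counts in every library (0.0503) and without the first or second parental library (0.528 and 0.542). *SRF* itself was at −0.018 (adjusted p = 0.965), *CNN1*, on at most 0.66 CPM, and *TAGLN* had the highest values at 0.48 and 0.46 (adjusted p = 0.883 and 0.412), and *ACTA2* and *MKL2* the lowest at −0.28 and −0.19 (adjusted p = 0.729 and 0.547 from edgeR).

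**Figure D4:**
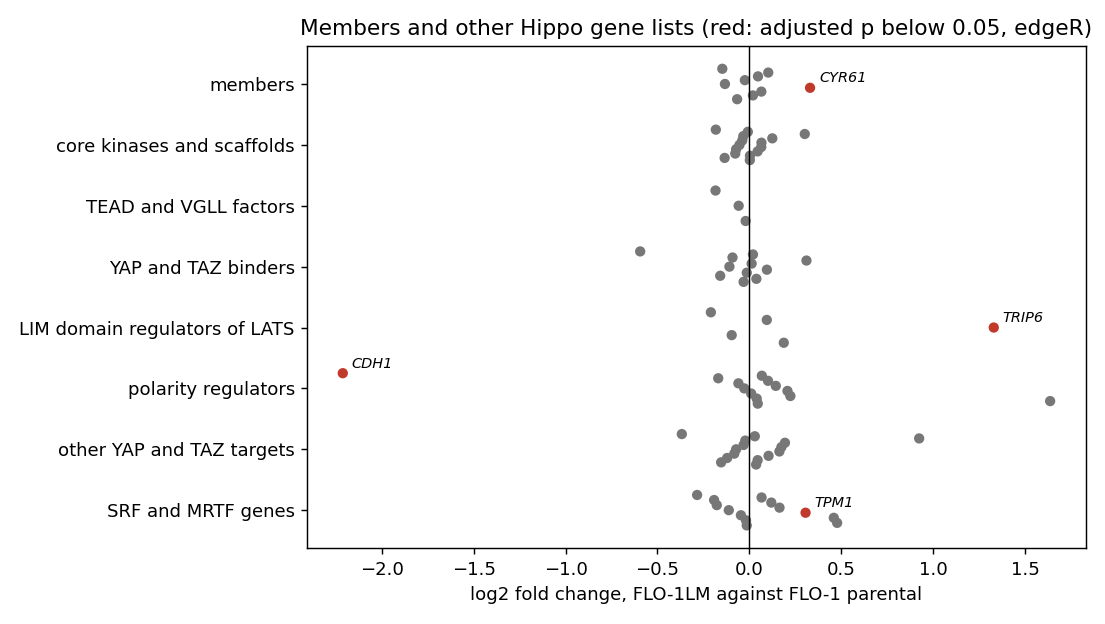
Log2 fold change, FLO-1LM against FLO-1 parental (x axis), of every tested gene in the members and in 7 other lists (rows), with genes at an adjusted p below 0.05 in edgeR in red. The red points are *CYR61* (0.33), *TRIP6* (1.33), *CDH1* (−2.21) and *TPM1* (0.31).

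The genes whose pattern over the 4 libraries lay closest to that of *CYR61*, by the root mean square difference of centred log2 CPM, were *ZNF600* (0.0213), *EEF1DP1* (0.0226), *AMOTL1* (0.0234), *PLEKHN1* (0.0249) and *KATNBL1P6* (0.0251). None of these 5 passed the test on its own, with adjusted p from 0.0759 for *AMOTL1* to 0.597 for *PLEKHN1* (edgeR). *EEF1DP1* and *KATNBL1P6* are pseudogenes that may take reads of their parent genes. Over 4 libraries such closeness mainly says that a gene is higher in FLO-1LM by a like amount.

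Neighbours on the chromosome were examined for each member. The 5 tested genes within 500 kb of *CYR61*, *SYDE2*, *ZNHIT6*, *BCL10*, *DDAH1* and *C1orf52*, had log2 fold changes from −0.014 to 0.092 and none passed edgeR's test. Within 500 kb of *YAP1*, in the region that also holds the apoptosis inhibitor genes *BIRC2* and *BIRC3*, 1 of 8 tested genes was called, the opposite-strand ENSG00000254422, and the median was 0.042. Near *LATS1*, 1 of 21 was called, the noncoding ENSG00000273132. None was called among the neighbours of *WWTR1*, *TEAD1*, *TEAD4*, *LATS2*, *CTGF* or *AMOTL2*.

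**Figure D5:**
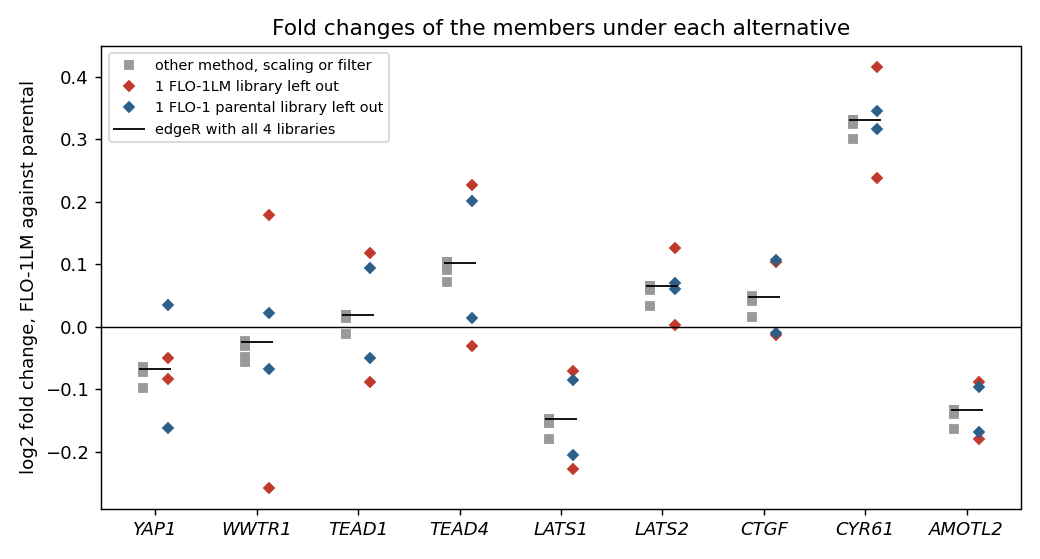
Log2 fold change of each detected member (y axis) with all 4 libraries (black bar), under 7 other methods, scalings or filters (grey) and with each library left out (red and blue). *CYR61* stays between 0.24 and 0.42, while *YAP1*, *WWTR1*, *TEAD1*, *TEAD4* and *CTGF* cross 0.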

How the data were processed

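RNAseq was performed on 2 libraries of FLO-1LM and 2 of FLO-1 parental cells. The authors prepared directional libraries, ran bcl2fastq 2.17, trimmed adapters with Trimmomatic 0.30, mapped reads to GRCh37 and deposited raw read counts per Ensembl gene. The name of the short read aligner, how reads were assigned to genes and whether strand was used are not given in the sources used here. Lines were assigned from the sample labels, and replicates were numbered in listed order. Ensembl identifiers were matched to symbols for 55665 of 63677 genes.

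The members and lists were chosen with earlier results of these data known. Genes were kept with edgeR's filterByExpr (minimum count 10, minimum total 15), scaled by TMM and tested across all genes with edgeR 4.0.16 (estimateDisp, glmQLFit, glmQLFTest, two-sided) in R 4.3.3, with Benjamini-Hochberg adjustment over the 17143 genes tested and a threshold of 0.05. The SE is the absolute log2 fold change over the square root of F, and 95% intervals use the t quantile. A pseudocount of 0.5 CPM was used for log2 CPM. Intervals and floors of single counts cover counting error only. The scripts were tested on simulated data. Libraries of a line differed beyond sampling noise (chi-square over degrees of freedom 7.85 in FLO-1LM and 3.70 in parental cells), and the common biological coefficient of variation was 0.0899.

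Named genes were all members, in each list every gene past the threshold with the 2 highest and 2 lowest fold changes, the 5 genes closest in pattern to the member with the smallest p, opposite-strand genes and *CDH1*. Genes named outside this rule (*STK3*, *STK4*, *TEAD2*, *TEAD3*, *CTNNA1*, *AXL*, *SRF*, the LIM genes, and neighbours) were picked for their role after values were seen. Alternatives were DESeq2 1.42.0, RLE factors, library totals, no low-count filter, a minimum of 10 counts in all 4 libraries, limma voom (limma 3.58.1, the kind of test the study used), mitochondrial genes left out, and each library left out. Sequences are from RefSeq promoters on GRCh38.p14, and positions of genes from a later GENCODE annotation mapped to GRCh37.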

Additional observations from a re-analysis of the deposited data

How the results depend on the processing

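Of the 9 members tested, *LATS1*, *LATS2*, *CYR61* and *AMOTL2* kept their direction in all 11 alternatives, and the 8 members other than *CYR61* stayed short of the threshold in each. With library totals only, 0 members and 0 serum response factor genes passed, *CYR61* was at 0.30 (adjusted p = 0.0743 from edgeR) and *TEAD1* turned to −0.012. With no low-count filter 577 genes passed, 147 of them higher, and 1 of the YAP and TAZ binders was higher. With at least 10 counts in every library 203 genes were lower and 0 serum response factor genes passed. When each library was left out in turn, the genes past the threshold ranged from 116 to 1052 (20 to 356 higher, 96 to 696 lower), with most calls without a FLO-1LM library and fewest without a parental one. These fits assume that the lone library of a line varies like the pair in the other line. In them the members called ranged from 0 to 1, and so did the core kinases, the binders and the polarity genes called higher and the LIM genes called lower, while serum response factor genes called higher ranged from 0 to 2. The genes gained were *AMOTL1* and *PARD3* without the first FLO-1LM library and *FRMD6*, *LIMD1* and *ACTB* without the second. The fold changes ranged from −0.16 to 0.036 for *YAP1*, −0.26 to 0.18 for *WWTR1*, −0.089 to 0.12 for *TEAD1*, −0.030 to 0.23 for *TEAD4*, −0.013 to 0.11 for *CTGF* and 0.24 to 0.42 for *CYR61*. The causes were not tested. No paired analysis was possible because the labels give no replicate numbers. Depth limits what can be said of *ANKRD1*, which had no counts, and of genes with few, among them *CNN1*, *CCDC80*, *CRB3* and *F3*.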

Other observations

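Ratios between paralogs or paired targets within a library, taken per kb of exon, do not depend on the scaling of the libraries. The pairs, 6 in all, were chosen after their values were seen. *CYR61* over *CTGF* was 1.02 and 1.06 in FLO-1LM and 0.902 and 0.815 in parental cells. *AMOTL1* over *AMOTL2* was 0.331 and 0.394 against 0.270 and 0.262, and *LATS2* over *LATS1* was 1.86 and 1.91 against 1.57 and 1.69. *CYR61* over *AMOTL2* was 1.25 and 1.5 against 1.03 and 0.962. None of these ratios overlapped between the lines, and each gave p = 0.333 in a two-sided exact permutation test, the smallest that 2 libraries against 2 can give (0.5 after Benjamini-Hochberg adjustment over the 6). Each holds *CYR61*, *LATS1*, *AMOTL1* or *AMOTL2*, whose own levels did not overlap between the lines, so the ratios partly restate those levels. Over all tested genes, 42.6% did not overlap. *YAP1* over *WWTR1* overlapped, with 5.97 and 8.27 in FLO-1LM and 7.42 and 6.89 in parental cells, and so did *TEAD1* over *TEAD4*, with 0.694 and 0.957 against 0.852 and 0.878 (exact permutation p = 1.0 for both).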
